A study of Homo sapiens with 2 samples.

Results

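Genes for cytoplasmic translation initiation and elongation factors were examined in a ChIP-seq of CAL27 cells. The members are 51 genes named by symbol, and a peak was assigned to a member when that symbol stood in the gene annotation of the peak. By this rule 15 of the 51 members had a peak entry, and they accounted for 17 of the 1900 peaks. Initiation factors bring the small ribosomal subunit, the initiator tRNA and the capped mRNA together, and elongation factors then deliver aminoacyl-tRNA and move the ribosome along the message. In the eIF4F complex, eIF4E holds the cap, eIF4G is the scaffold and eIF4A is the RNA helicase that unwinds the 5′ leader. KLF7 belongs to the Krüppel-like zinc finger proteins, a family known for binding GC-rich DNA. MYC with its partner MAX is known for binding the E-box CACGTG.

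CAL27 cells, a human line derived from a carcinoma of the tongue, carried lentiviral KLF7 with a myc tag and were fixed with 1% formaldehyde, and chromatin was precipitated with an antibody labelled Myc (D3N8F). The data comprised 1 ChIP library and 1 input library, both from cells with myc-KLF7. There were no replicates, so no value below has a replicate error and no test between conditions was possible, and no library from cells lacking the tagged protein was used here. Tagged KLF7 and endogenous MYC therefore cannot be told apart as the precipitated protein, and the p-value of a peak compares the 2 libraries, not conditions.

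For each peak the deposited table gives a pileup, which counts the ChIP fragments that cover the summit, and a fold enrichment, which divides the pileup by the local background after 1 is added to both. Over all 1900 peaks the pileup ran from 7 to 8146 with a median of 13, the median fold enrichment was 5.06, and 576 peaks had a promoter entry. Read totals are not in the table, so depth is unknown. The interval given after a pileup is the exact 95% Poisson interval and covers counting error only. Positions are in GRCh38 and counted from 1. Distances run from the start of the Ensembl canonical transcript in GENCODE v44 to the summit, negative upstream.

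A peak entry was found for 29.4% of the translation factor genes, against 6.32% of 20037 protein-coding genes. A promoter entry of its own was found for 5 members, or 9.80%, against 2.13% of protein-coding genes. Those 5 were EIF3B, EIF3M, EIF4A1, EIF4A3 and EEF2K. Counted by position instead, 16 members, or 31.4%, had a summit within 1000 bp of the start, against 4.75% of 20033 protein-coding genes. The members were chosen with earlier results of these data known, so these shares are a description only. All protein-coding genes include genes that CAL27 cells may not express, and the part of expression in these shares was not tested.

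By role, entries were found for 5 of 13 genes of cap binding, helicase and scaffold, namely EIF4A1, EIF4A3, EIF4B, EIF4G1 and PABPC1. Of the 13 eIF3 genes, which encode the large complex that holds the small subunit, EIF3B, EIF3D, EIF3J and EIF3M had an entry. Of 7 elongation genes, 3 had one (EEF1B2, EEF1D and EEF2K). Among 10 genes of the ternary complex and start codon recognition, a group that here also held EIF5B, the 2 with an entry were EIF2A and EIF2S2. The group of 3 labelled subunit joining and eIF5A held EIF5A, EIF5A2 and EIF6, and only EIF5A had an entry. None of the 5 genes of eIF2B, the factor that recharges eIF2 with GTP, had an entry.

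**Figure D1:**
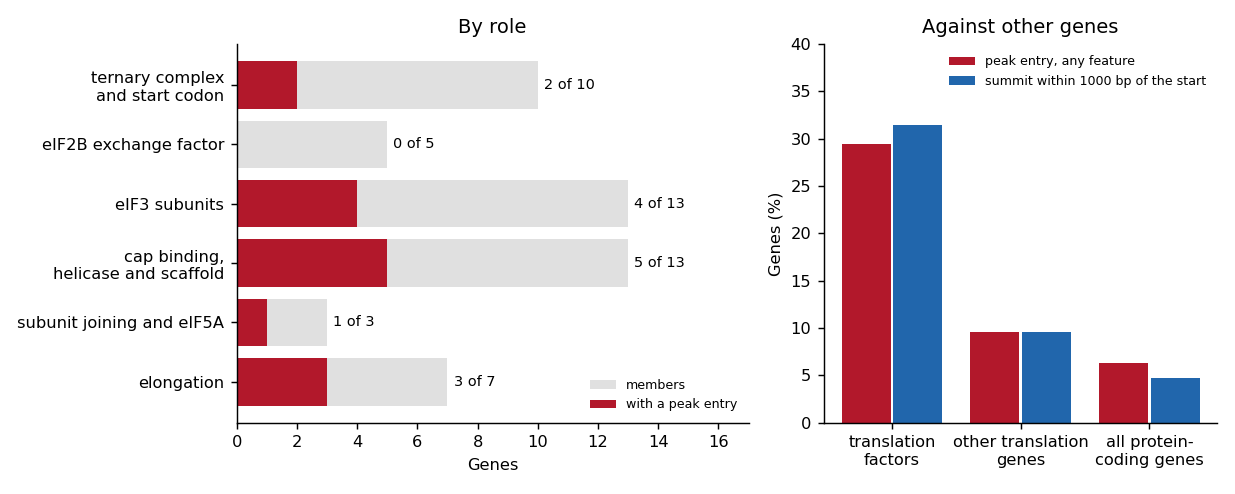
Left, horizontal bars give the number of translation factor genes in each role (grey) and the number with a peak entry (red), from 0 of 5 for eIF2B to 5 of 13 for cap binding, helicase and scaffold. Right, bars give the percentage of genes with a peak entry of any feature (red) and with a summit within 1000 bp of the start (blue), which were 29.4% and 31.4% of translation factor genes, 9.62% and 9.62% of 52 other translation genes, and 6.32% and 4.75% of protein-coding genes.

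Within 100 bp of the summit, 5 of the 17 peaks held the E-box CACGTG. Their sequences are shown because they place this motif within the peaks. Each is 30 bases of GRCh38, written 5′ to 3′ on the strand of the gene, with CACGTG and any GGGCGG in capitals.
EIF4A1 (chr17:7572519-7572548, plus strand): ctgtcgcctccgCACGTGtgagagtgcagg
EIF4A3 (chr17:80147232-80147261, minus strand): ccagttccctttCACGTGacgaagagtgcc
EIF4G1, upstream copy (chr3:184314450-184314479, plus strand): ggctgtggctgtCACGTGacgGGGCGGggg
EIF4G1, copy at the summit (chr3:184314527-184314556, plus strand): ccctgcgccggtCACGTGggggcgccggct
EEF1B2 (chr2:206160105-206160134, plus strand): cggggccggggcCACGTGgcgcagcgtgtc
EEF2K (chr16:22206207-22206236, plus strand): cctggGGGCGGcCACGTGagcgccacgccg

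The GC box GGGCGG, searched on both strands, was present in 14 of the 17 peaks within the same 100 bp. The examples below are peaks that held a GC box and no CACGTG in that window. Capitals mark GGGCGG, or CCGCCC where the match is on the other strand.
EIF3B (chr7:2354775-2354804, plus strand): tgggtgcgccccCCGCCCcgcggccttggt
EIF3M (chr11:32583748-32583777, plus strand): gctctcaaggccCCGCCCcaacaggtcgcc
EIF5A (chr17:7307958-7307987, plus strand): tggagcgacgcaGGGCGGgggacggcgagc
EIF2S2 (chr20:34111887-34111916, minus strand): ccgctttcctcaGGGCGGcagcgctgaggc
EIF3D (chr22:36528934-36528963, minus strand): cgtccctccgctGGGCGGggcaggaatcca

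For a wider view of one region with both motifs, the whole called peak in the EEF1B2 intron is given, 233 bases outside any annotated exon, with the E-box and the GC box in capitals.
EEF1B2 (chr2:206160066-206160298, plus strand): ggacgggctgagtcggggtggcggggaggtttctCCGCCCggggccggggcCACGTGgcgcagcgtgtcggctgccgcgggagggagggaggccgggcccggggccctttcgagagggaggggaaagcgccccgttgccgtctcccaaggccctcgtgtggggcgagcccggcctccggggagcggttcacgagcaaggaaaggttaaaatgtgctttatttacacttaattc

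All 17 peaks lay near the start of their own gene. Of all 1900 peaks, 834 had a summit within 1000 bp of a protein-coding start. By the canonical start, the 17 summits ran from 323 bp upstream (PABPC1) to 596 bp downstream (second EIF4B peak). Of these 7 were upstream and 10 downstream, and the median absolute distance was 213 bp. This split depends on the start used. From the start of the GENCODE gene model, the summits of PABPC1, the first EIF4G1 peak and EIF3M lay 398, 56 and 10 bp downstream, and that of EEF1D 2268 bp downstream. In the deposited annotation the entry naming the member was a promoter in 5 peaks, a 5′ UTR or exon in 3 and an intron in 9. By the canonical start the intron peaks were thus first-kilobase peaks and not distal ones. In GENCODE v44, however, the summits of the intron entries at EIF3D, EIF5A and EEF1D lay in an exon of the same gene. The EIF2A summit lay in an exon of SERP1. In 3 peaks with an intron entry for the member, promoter entries named other genes. These were EIF3J-AS1 at EIF3J, TIGD5 at EEF1D, and NDUFS1, SNORD51, snoZ196 and uc_338 at EEF1B2. Each peak was also classed by the entries of any gene, with promoter placed before 5′ UTR and intron last. By that rule 8 of the 17 were promoter, 4 were 5′ UTR and 5 were intron peaks. Over all 1900 peaks these classes made up 30.3%, 7.79% and 24.9%. The summits at EIF2A, EEF1B2 and EEF1D also lay within 1000 bp of another protein-coding start (SERP1, NDUFS1 and TIGD5), so those peaks cannot be given to 1 gene by position. Of all 51 members, 9 (17.6%) had an opposite protein-coding start within 1000 bp, against 10.0% of protein-coding genes.

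**Figure D2:**
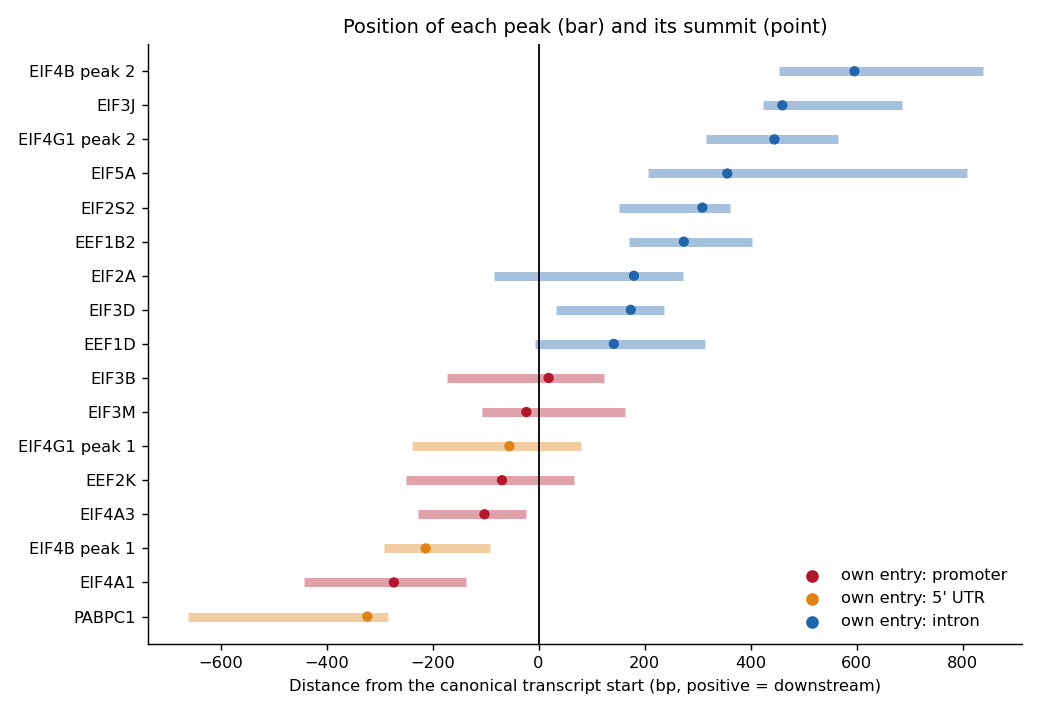
Each bar is 1 called peak and each point its summit, placed by distance in bp from the canonical transcript start of the gene (0, positive downstream) and coloured by the member's own entry. Promoter and 5′ UTR summits sit from 323 bp upstream to 19 bp downstream, and the intron summits from 142 to 596 bp downstream.

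Among the genes of the cap-binding complex, EIF4A1, which encodes the main eIF4A helicase, had the highest fold enrichment. Its peak at chr17:7572382-7572688 had its summit 273 bp upstream of the start, a pileup of 23 (14.6 to 34.5) over a background rate of 1.10, an enrichment of 11.5-fold and, as −log10 q, 18.5. That enrichment ranked 25 among all 1900 peaks and 4 among the 576 promoter peaks, whereas by pileup the same peak ranked 43.5 among promoter peaks. The peak also had a promoter entry for AC016876.2, and exon and 3′ UTR entries for SENP3-EIF4A1, a readthrough transcript from the neighbouring gene. In GENCODE v44 the summit lay in an exon of SENP3-EIF4A1.

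EIF4A3, the paralogue that sits in the exon junction complex, had a promoter peak at chr17:80147152-80147355 with the summit 102 bp upstream. Its pileup was 10 (4.80 to 18.4), its fold enrichment 4.56 and its −log10 q 2.76. Between the promoter peaks of the paralogues the pileup intervals overlapped. EIF4A2, the third of these helicase genes, had no entry, and its nearest summit lay 845466 bp away.

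EIF4G1, the scaffold gene, had a pair of peaks whose summits were 500 bp apart. The first, at chr3:184314367-184314687, was a 5′ UTR entry 55 bp upstream of the canonical start with a pileup of 30 (20.2 to 42.8), which was the highest of the 17. Its fold enrichment was 8.83 and ranked 75 of 1900. The second, in the intron 445 bp downstream at chr3:184314921-184315171, had a pileup of 14 (7.65 to 23.5) at 4.20-fold enrichment, below the median of all peaks.

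EIF4B, a cofactor of the helicase, showed the same arrangement, a 5′ UTR peak and an intron peak with summits 809 bp apart. The first, at chr12:53006164-53006365 and 213 bp upstream, had a pileup of 14 (7.65 to 23.5) at 6.47-fold enrichment. The second, at chr12:53006909-53007294 and 596 bp downstream, had a pileup of 13 (6.92 to 22.2) at 3.99-fold enrichment over a higher background rate (2.51 against 1.32). PABPC1, the poly(A)-binding protein gene, had a 5′ UTR peak at chr8:100722372-100722749, 323 bp upstream, with a pileup of 12 (6.20 to 21.0) at 5.06-fold enrichment.

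For eIF3, EIF3B had the strongest peak. It encodes a core subunit and had a promoter peak at chr7:2354655-2354950 whose entry also named SNX8, with a pileup of 24 (15.4 to 35.7), a fold enrichment of 7.89 and rank 32 among promoter peaks. The summit lay 19 bp downstream of the canonical start and 760 bp downstream of the RefSeq start. EIF3M followed with a promoter peak at chr11:32583725-32583994, 23 bp upstream, with a pileup of 18 (10.7 to 28.4) at 6.52-fold enrichment.

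EIF3D, whose product can bind the cap of certain mRNAs, had an intron peak at chr22:36528930-36529134, 174 bp downstream, with a pileup of 10 (4.80 to 18.4) at 4.94-fold enrichment. EIF3J, a loosely attached subunit, had the lowest pileup of the 17, 8 (3.45 to 15.8), in an intron peak at chr15:44537571-44537832 with 4.26-fold enrichment at a −log10 q of 2.0. The intervals of all 4 eIF3 peaks with an entry were wide, and those of EIF3J and EIF3B overlapped only between 15.4 and 15.8.

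EIF3E, another core subunit, had no entry under its symbol. A peak at chr8:108248518-108248709 nevertheless had its summit 168 bp downstream of the canonical and RefSeq starts of EIF3E, with a pileup of 11 (5.49 to 19.7) at 4.67-fold enrichment. The deposited annotation calls that peak intergenic. The GENCODE gene model of EIF3E starts farther upstream, and a different called summit, also without an EIF3E entry, lay 23 bp from that start. EIF3E is the member that makes 16 by position and 15 by symbol, and it was singled out after its values were seen.

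Of the initiation factors that bring the initiator tRNA, EIF2S2 encodes the beta subunit of eIF2. Its intron peak at chr20:34111881-34112091, 309 bp downstream, had a pileup of 15 (8.40 to 24.7) at 5.07-fold enrichment. EIF2A encodes a separate factor that can deliver initiator tRNA. It had a peak at chr3:150546703-150547059, 180 bp downstream, with a pileup of 17 (9.90 to 27.2), a fold enrichment of 4.71 and the highest background rate of the 17, 2.83. EIF5A, whose hypusinated product helps ribosomes through difficult stretches, had a peak at chr17:7307834-7308437 with a pileup of 16 (9.15 to 26.0) at 7.74-fold enrichment, ranking 138. Its summit lay 356 bp downstream of the canonical start and 985 bp downstream of the RefSeq start.

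In the elongation group, EEF1B2 and EEF1D encode exchange-factor subunits that recharge eEF1A. EEF1B2 had a pileup of 14 (7.65 to 23.5) over a background rate of 0.976, the lowest of the 17, and a fold enrichment of 7.59. EEF1D, at chr8:143597101-143597421 and 142 bp downstream, had a pileup of 13 (6.92 to 22.2) at 3.99-fold enrichment. The pileups were thus close, and the fold enrichments differed mainly through the background rate, which was 2.51 at EEF1D. EEF2K, the kinase that phosphorylates and inhibits eEF2, had a promoter peak at chr16:22206027-22206344, 69 bp upstream, with a pileup of 16 (9.15 to 26.0) at 7.53-fold enrichment.

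**Figure D3:**
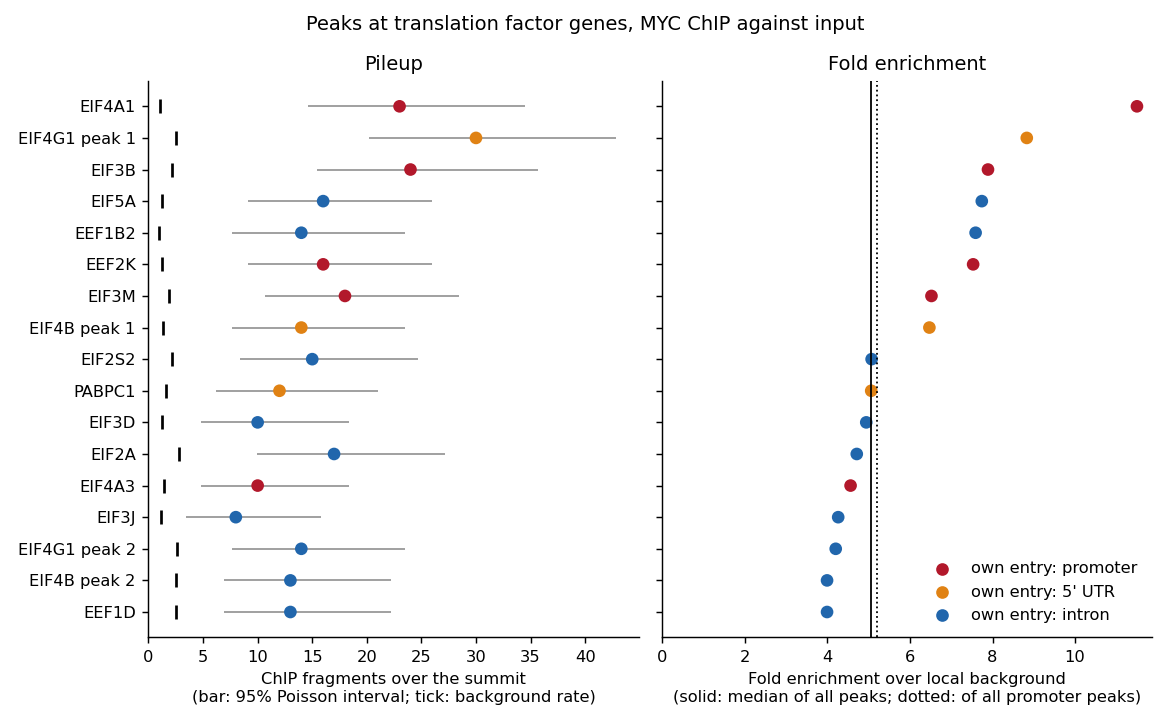
Left, points give the pileup of each peak in ChIP fragments with its exact 95% Poisson interval, and ticks the background rate at the same place. Right, points give the fold enrichment, with the medians of all peaks (solid, 5.06) and of all promoter peaks (dotted, 5.2), and 9 of the 17 peaks lie above the first.

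By their medians the peaks were of ordinary strength. Their median fold enrichment was 5.07 against 5.06 over all peaks, and their median pileup 14 against 13. The 5 with a promoter entry of their own had a median of 7.53 (4.56 to 11.5) against 5.2 over all promoter peaks, and the other 12 a median of 5.0. All promoter peaks were counted by a promoter entry of any gene, a rule that 8 of the 17 meet. The peaks so added, at EIF3J, EEF1B2 and EEF1D, had fold enrichments of 4.26, 7.59 and 3.99. The upper end differed by measure. By fold enrichment 6 of the 17 were among the first 190 of all 1900 peaks, and by pileup 0 were. Those 6 were EIF4A1, the first EIF4G1 peak, EIF3B, EIF5A, EEF1B2 and EEF2K. A q-value under 0.001 was reached by 13 of the 17 (76.5%), against 81.7% of all peaks.

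**Figure D4:**
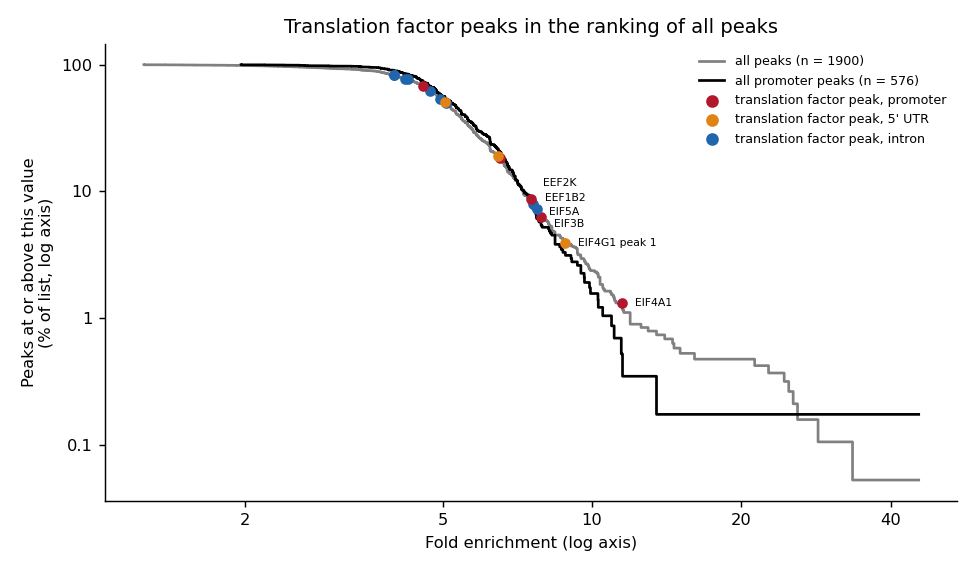
Lines show the percentage of peaks (log axis) at or above each fold enrichment (log axis) for all 1900 peaks (grey) and for the 576 promoter peaks (black), and points mark the 17 translation factor peaks by their rank among all peaks. EIF4A1 at 11.5 lies farthest to the right, and 8 of the 17 points lie below the overall median of 5.06.

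The 36 members without an entry included many of the best-known factors. They were EIF1, EIF1AX, EIF1AD, EIF1B, EIF2S1, EIF2S3, EIF5, EIF5B, EIF6, EIF5A2, EIF2B1, EIF2B2, EIF2B3, EIF2B4 and EIF2B5. Of eIF3 they were EIF3A, EIF3C, EIF3E, EIF3F, EIF3G, EIF3H, EIF3I, EIF3K and EIF3L, and of the cap-binding group EIF4A2, EIF4E, EIF4E2, EIF4EBP1, EIF4EBP2, EIF4G2, EIF4G3 and EIF4H. Of elongation they were EEF1A1, which brings aminoacyl-tRNA to the ribosome, EEF1E1, EEF1G and EEF2, the translocase.

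The median distance from the start of these 36 genes to the nearest summit was 393974 bp. Apart from EIF3E, the nearest were EIF2B4 at 13401 bp, EIF3G at 13489 bp and EEF1G at 17917 bp. A peak missing from the table says only that none was called. At EIF3C every 31-base word within 100 bp of the start occurs again in the genome, so a read there may match more than 1 place and a missing peak is uninformative. Over the same 100 bp on each side, no other member start had more than 50% repeated words. Of the 17 peaks, repeated words were found in EEF1D alone.

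The median share of G and C was 72.6% (50.7% to 80.1%) over the 17 peaks, against 70.1% over the peaks with a summit within 1000 bp of a protein-coding start. For the 5 promoter peaks it was 69.2%, against 69.7% over all promoter peaks. The E-box within 100 bp of the summit was found in 3 of the 5 promoter peaks, EIF4A1, EIF4A3 and EEF2K, against 26.8% of 571 promoter peaks on the assembled chromosomes. Those 571 have a promoter entry of any gene. The peaks at EIF3J, EEF1B2 and EEF1D meet that rule too, and of them only EEF1B2 held the E-box. Over all 17 peaks its share was 29.4%, and over the 834 peaks with a summit within 1000 bp of a protein-coding start it was 25.9%. The GC box was found in 4 of the 5 promoter peaks, with EIF4A3 the exception, against 68.1% of promoter peaks. EEF1B2 and EEF1D held the GC box and EIF3J did not. Over all 17 its share was 82.4%, against 71.7% of the peaks near starts. The EIF2A peak, the poorest in G and C, held neither motif, and at EIF3J the E-box was centred 101.5 bp from the summit, just outside the window.

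Where both were present, E-box and GC box lay close together in some peaks. At EEF2K their centres were 12.5 and 5.5 bp downstream of the summit, separated by a single base, as the printed sequence shows. At EEF1B2 they were centred at -49.5 and -66.5 bp, and at EIF4A1 at -18.5 and 92.5 bp. EIF4A3 had its E-box at -16.5 bp, and EIF4G1 had its copies at -86.5 and -9.5 bp. The 5 peaks with an E-box had a median fold enrichment of 7.59 (4.56 to 11.5), and the 12 without had one of 5.0 (3.99 to 7.89). Over all promoter peaks the medians were 5.48 with it and 5.13 without. That reference holds promoter peaks only, whereas the 17 were of any feature, and motif and feature were not separated.

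**Figure D5:**
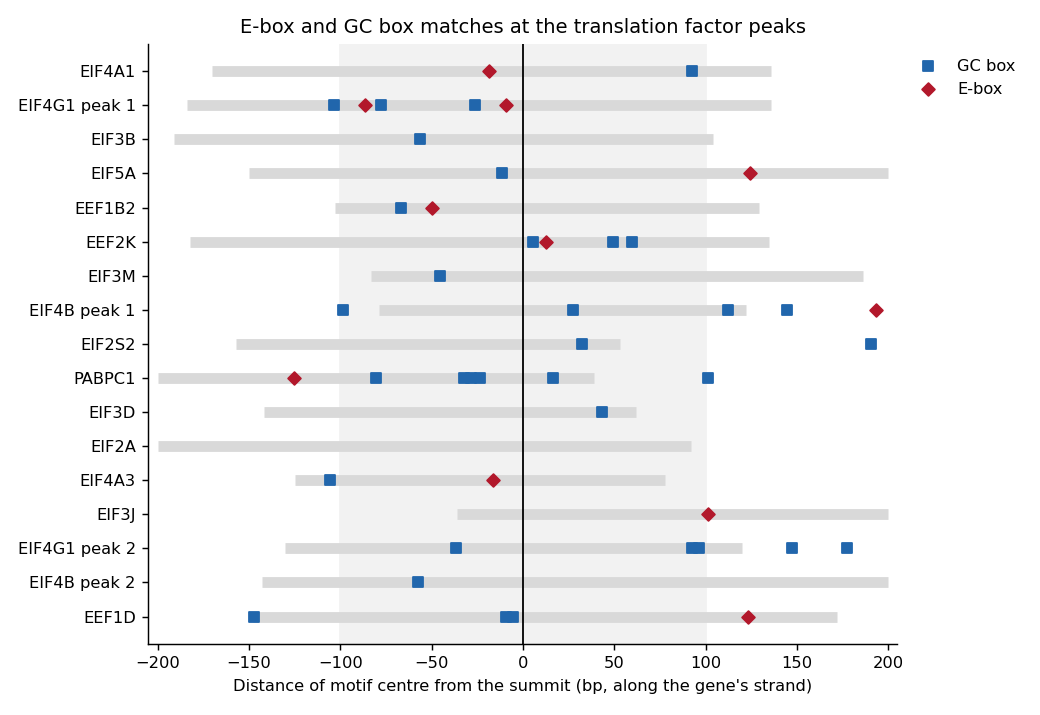
Diamonds mark E-boxes (CACGTG) and squares GC boxes (GGGCGG, either strand) by the distance of their centre from the summit in bp along the gene's strand, grey bars show the called peaks and the shaded band the 100 bp on each side. Within the band 5 of the 17 peaks hold an E-box and 14 a GC box, and the EIF2A peak has neither in the 200 bp shown on each side.

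The motifs were also counted at the starts of all members, without a test of the difference. Within 500 bp of the start, CACGTG was found in 9 of the 15 members with an entry and in 12 of the 36 without, against 18.3% of protein-coding starts and 39.7% of protein-coding starts with a summit within 1000 bp. GGGCGG was found in 15 of 15 and in 34 of 36, against 76.9% of protein-coding starts and 96.2% of those with a summit. Read the other way, 10 of 21 members with CACGTG at the start (47.6%) had a summit within 1000 bp, and 6 of 30 without it. Over protein-coding genes these shares were 10.3% with CACGTG and 3.51% without it. EIF4E, the cap-binding protein gene, held 2 copies of CACGTG and 3 of GGGCGG at its start and its nearest summit lay 4147365 bp away.

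A further 52 genes of translation, chosen for their role but with earlier results of these data known, were examined in the same way. Of these, 5 had a peak entry (9.62%), near the 6.32% of protein-coding genes, and PAIP2 alone had a promoter entry. Entries were found for 2 of 14 other initiation factors and cofactors, 1 of 12 kinases and phosphatase subunits, 1 of 11 other elongation factors and their modifiers, 1 of 9 mitochondrial factors and 0 of 6 termination and recycling factors. The highest of these fold enrichments, 10.2 with a pileup of 19 (11.4 to 29.7), was at LARP1, which binds mRNAs that start with an oligopyrimidine tract. The summit of that peak lay 382 bp upstream of the canonical start but 72016 bp downstream of the RefSeq start. A different called summit, without a LARP1 entry, lay 317 bp from the RefSeq start. PAIP2, an inhibitor of PABPC1, had a pileup of 11 at 5.05-fold enrichment.

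DPH2, an enzyme of the diphthamide modification of eEF2, had a pileup of 10 at 5.01-fold enrichment, with the summit 5 bp upstream of its start. MRRF, the mitochondrial ribosome recycling factor, had a pileup of 13 at 5.31-fold enrichment in a peak shared with the start of RBM18. RPTOR, the scaffold of mTORC1, had a pileup of 10 at 4.88-fold enrichment at an intron summit 216818 bp inside the gene, the only one of the 5 away from the canonical start. EEF1AKMT4, an eEF1A methyltransferase gene, had no entry, although a peak with a pileup of 30 at 9.64-fold enrichment had its summit 60 bp from the start. That peak carried promoter entries for ECE2 and ALG3, and ALG3 starts on the opposite strand within 1000 bp, so it cannot be given to 1 gene by position. EEF1AKMT4 too was named after its values were seen.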

How the data were processed

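The authors trimmed reads with Trimmomatic, mapped them with BWA (hg38 per the labels), removed duplicates with Samtools and called peaks once with MACS2 on the single ChIP library against input. The deposited values used here are a signal (the pileup), a ratio (the fold enrichment over local background) and -log10 q from the Poisson test of each summit. The deposited -log10 p column was not used. Adding 1 to the pileup, dividing by the fold enrichment and subtracting 1 gave the background rate.

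Member symbols were matched exactly to the annotation entries. Every member and every other translation gene with an entry was named with its values, and every member without one was named. Members and lists were chosen with earlier results of these data known. Canonical transcript starts were used after it was seen that some GENCODE gene models begin far upstream. The share of protein-coding genes used RefSeq for entries and GENCODE v44 for starts. CACGTG and GGGCGG were searched on both strands of GRCh38, and 31-base words were counted over the genome with alternate contigs left out. Motif and word counting were tested on simulated data. Intervals cover counting error only. Alternatives covered stricter q-value, pileup and fold enrichment, the nearest-gene column, distances, motif windows and motifs. The software was pandas 2.3.3, scipy 1.17.1, numpy 2.4.6, matplotlib 3.10.9 and numba 0.67.0 under Python 3.11.15.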

Additional observations from a re-analysis of the deposited data

How the results depend on the processing

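Of 32 alternative values for 7 results, 27 stayed within 1.5 times the reported value. Members with a promoter entry rose from 5 to 16 when a summit within 1000 bp of the RefSeq or GENCODE gene start was counted instead. Other translation genes with an entry fell from 5 to 2 with the nearest-gene column. Member promoter peaks with an E-box went from 3 to 5 when any CANNTG was allowed, and those with a GC box from 4 to 2 within 50 bp of the summit. Members with a summit near the start went from 16 within 1000 bp to 10 within 250 bp, a distance chosen after seeing the data. Members with an entry numbered 12 at a q-value under 0.001, which EEF1D, EIF3J and EIF4A3 missed, 10 at a fold enrichment of at least 5, and 11 by the nearest-gene column. The shares of all protein-coding genes were not computed under these alternatives. The counts of members there therefore cannot be set against all genes. No paired analysis was possible because there is 1 ChIP library and 1 input library. With pileups of 8 to 30, counting error alone spans most differences between these peaks.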
